A study of Strophostyles helvola with 12 samples.

Results

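The Inland genotype of Strophostyles helvola, a wild relative of common bean, was compared in its roots with and without salt. The members of this comparison are the 6 Inland libraries of the 12 in the series, taken by their labels: 3 from plants given water and 3 from plants given a NaCl solution with a final concentration of 200 mM. The genotype came from Missouri, and the study describes it as salt sensitive. Both groups carry the same genotype, were grown in potting mix as seedlings with a labelled age of 10 d and received 50 mL of water or solution per day. In the paper, 10 d is the age of the plants when NaCl was supplied. Whole roots were cut at 3 h, 24 h and 7 d after the designed NaCl concentration had been reached. Equal amounts of ground root from these times were pooled into 1 replicate, each time coming from another plant. A level in a library is therefore an average over early and late responses. In such bulk tissue, fewer cells of a type and less RNA per cell cannot be told apart.

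Roots meet soil salt first. High NaCl lowers the water potential outside the root, so that water uptake becomes harder, and sodium and chloride then accumulate in the tissue. Plants are known to answer with abscisic acid signalling, osmolyte synthesis, ion transporters that exclude or store sodium, protective proteins and a slowing of growth. The deposited table gives each gene by its common bean identifier alone and does not pair identifiers with gene names, so these functions could not be assigned to the genes below, and the root origin of the libraries could not be checked against marker genes. The identifier does state the chromosome, which is used where position is described.

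The Inland libraries held 33790610 to 41330498 counts on genes. Treatment exceeded control by 3381205 counts on average, with overlap between the groups (two-sided exact permutation test, p = 0.2). With 3 libraries per group this test cannot go below 0.1. Of 27191 genes in the table, 16130 had more than 5 CPM (counts scaled to a common library total) in at least 3 of the 6 libraries and were tested. These took between 98.9% and 99.0% of each library. The 9 distances between a control and a treated library, in log2 CPM over the tested genes, lay between 76.1 and 87.9. The 3 distances among controls were 27.7 to 39.2 and the 3 among treated libraries 27.8 to 38.4, so the ranges did not overlap. The first principal component held 78.6% of the variance and set all 3 treated libraries, at 34.5 to 42.3, apart from all 3 controls, at -40.5 to -35.4.

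Salt changed a minority of root genes by 2-fold or more and many more by a smaller amount. A differentially expressed gene (DEG) is here one with a fitted change of 2-fold or more and an fdr not above 0.05, the fdr being the Benjamini-Hochberg value over all tested genes in the quasi-likelihood test of edgeR. There were 1207 DEGs (7.48% of the tested genes). Salt raised 546 of them (3.38%) and lowered 661 (4.10%). The typical DEG moved by about the same factor in both directions, since the median fitted fold was 2.63 for the higher and 2.62 for the lower genes. DEGs that rose started low: their median level was 9.12 CPM in control and 30.6 CPM in treatment. DEGs that fell started high, with a median of 40.4 CPM in control and 13.6 CPM in treatment, while the median over all tested genes was 29.0 CPM in control and 29.1 CPM in treatment. These levels come from the contrast that chose the DEGs and are a description of them.

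**Figure D1:**
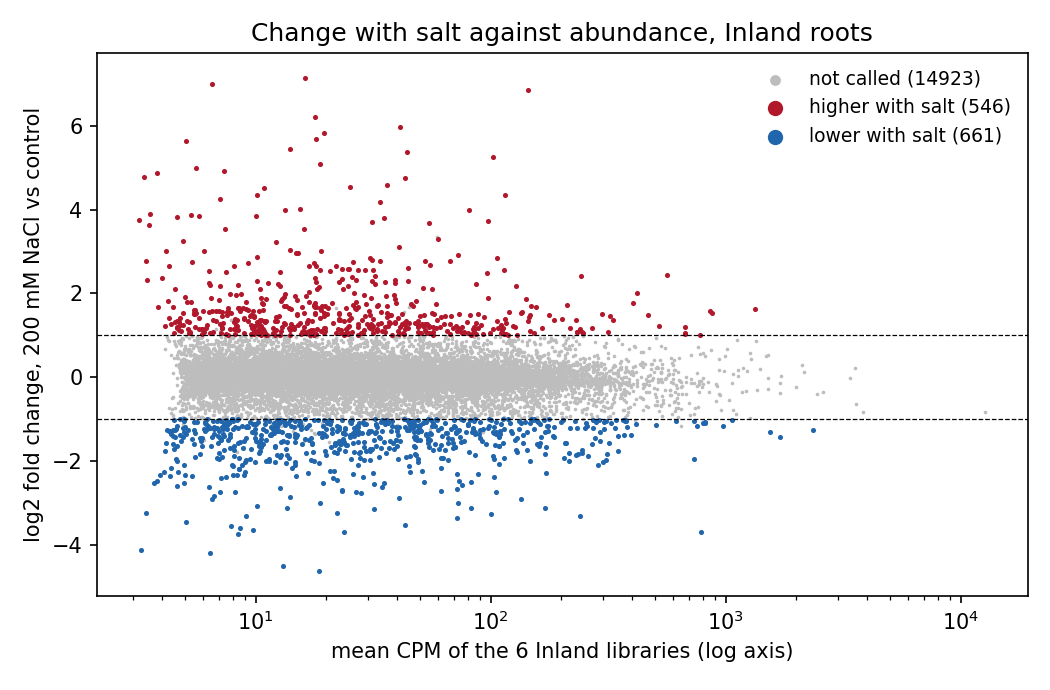
Log2 fold change of each tested gene between 200 mM NaCl and control (y axis) against its mean CPM over the 6 Inland libraries (x axis, log scale); red points are the 546 DEGs higher with salt, blue points the 661 lower with salt, grey points genes that did not pass, and dashed lines mark a 2-fold change. The largest rises among DEGs reach further from 0 than the largest falls, 7.16 against -4.63 on the log2 scale.

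Among the tested genes, large rises outnumbered large falls. By at least 8-fold, 48 genes (8.79% of the higher DEGs) rose and 25 (3.78% of the lower DEGs) fell. By at least 16-fold, 25 genes rose and 4 fell, and a change of at least 32-fold was fitted for 13 rising genes and for 0 falling ones. At the other end, 425 of the higher and 555 of the lower DEGs changed by less than 4-fold. The minimum of 5 CPM enters this count: 38 of the 48 and 15 of the 25 passed it only in the group where they were high. With no filter on low counts, 109 genes rose and 85 fell by at least 8-fold (edgeR quasi-likelihood test at the same fdr limit), so the numbers in the 2 directions lay closer together. With each library omitted, the value of 48 was 45 to 51 and that of 25 was 22 to 27 over the same tested genes, or 47 to 55 and 23 to 30 when the minimum was asked of 2 of the 5 libraries kept. When it was still asked of 3 libraries, the direction turned with the group that lost a library: 12 rose and 27 fell without treated replicate 1, 10 and 25 without replicate 2, and 11 and 22 without replicate 3. Without a control, 45 to 47 rose and 8 to 11 fell.

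**Figure D2:**
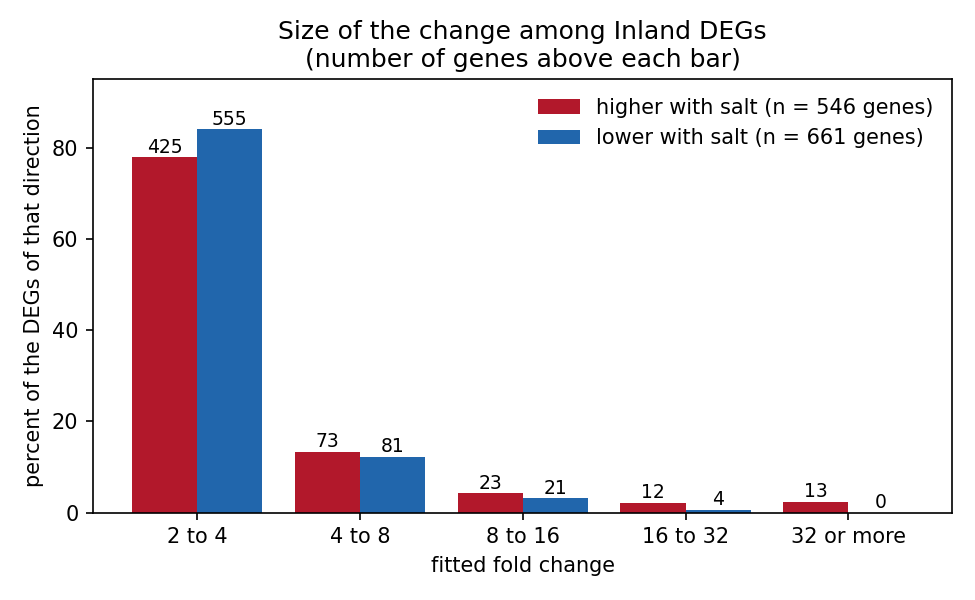
Percent of the DEGs of each direction (y axis, from 0) by fitted fold change (x axis), with the number of genes above each bar; red bars are the 546 genes higher with salt and blue bars the 661 genes lower with salt. The classes of 16-fold and above hold 12 and 13 rising genes against 4 and 0 falling genes.

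Some tested genes were close to silent in one condition. Such genes could pass the minimum only through the group where they were high, and the limits used here fix a change of over 5-fold, so their numbers are a description. A mean under 1 CPM in control and of at least 5 CPM in treatment was found for 23 genes, with a median of 0.608 CPM in control and 10.7 CPM in treatment and at most 38.3 CPM in treatment. The reverse pattern, at least 5 CPM in control and under 1 CPM in treatment, was found for 4 genes, with a median of 7.75 CPM in control and 0.658 CPM in treatment. Every tested gene had at least 1 count among the controls and among the treated libraries, so no fold change was taken against a group without counts.

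Below 2-fold, higher genes were the more numerous, by a margin that depended on the scaling. At an fdr of at most 0.05 without a minimum fold, 36.4% of the tested genes passed edgeR's quasi-likelihood test. Of the 4661 that passed with a change under 2-fold, 2487 (53.4%) were higher and 2174 lower, with a median change of 1.34-fold, whereas 45.2% of the DEGs were higher. With library totals in place of TMM factors, 3534 were higher and 1578 lower by less than 2-fold, and with edgeR's exact test 1928 and 1889. Which direction was the more frequent among DEGs turned with the processing. With library totals, 627 DEGs were higher and 558 lower, and when genes were tested for a change beyond 2-fold, 208 were higher and 186 lower. Without control replicate 2 or 3 and with genes filtered again at the same minimum, 520 and 535 were higher and 486 and 451 lower. That minimum drops genes expressed only in the group that lost a library, so these fits cannot decide the direction. With the minimum asked of 2 libraries, 547 and 564 were higher and 620 and 577 lower. The TMM factors themselves differed by group, from 0.960 to 0.994 in control and from 1.02 to 1.03 in treatment. For most genes the data bounded the change closely: the 95% interval of the fold change lay within 2-fold in either direction for 13559 genes (84.1% of those tested) and within 1.5-fold for 10544 genes (65.4%). A fitted change of at least 2-fold did not pass the fdr limit for 40 genes, 10 higher and 30 lower.

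The gene with the largest fitted rise by the rule for named genes was Phvul.005G071300 on chromosome 5. The genes named here were taken by size or level from DEGs with at least 10 counts in each library and no overlap between groups, so their values are large by choice. Phvul.005G071300 had 1.97, 2.20 and 3.10 CPM in Inland control replicates 1, 2 and 3, from 66, 71 and 116 counts. In the treated replicates it had 286, 305 and 267 CPM, from 11854, 10910 and 11238 counts. All treated libraries thus lay far above all controls, and the spread within each group was small beside the gap. The log2 fold change was 6.87 (standard error 0.17, 95% interval 6.45 to 7.29, edgeR fdr = 2.00e-05), a 117-fold rise, and it was 6.74 to 7.10 with each library left out. When genes were filtered again at 3 libraries, the gene was tested only in the fits without a control. Phvul.005G071300 went from rank 16080 of the 16130 tested genes in control to rank 404 in treatment, by CPM not divided by gene length. With under 5 CPM in every control, it was tested only through the treated libraries. Its place near the bottom of the control ranking follows from that.

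The next identifier after Phvul.005G071300 in the table rose with it, from 0.269, 0.124 and 0.267 CPM in control to 33.0, 34.5 and 29.3 CPM in treatment. Its log2 fold change, 7.16 (standard error 0.19, edgeR fdr = 2.17e-05), was the largest of all tested genes, but controls gave it only 4 to 10 counts per library. It too was tested only through the treated libraries. Its level was 9.08% of that of Phvul.005G071300 in control and 11.3% in treatment. The identifier before Phvul.005G071300 had 11.9 to 12.9 CPM in control and 12.4 to 13.0 CPM in treatment and did not pass (log2 fold change 0.04, standard error 0.07, edgeR fdr = 0.668). Reads that aligned to more than 1 place were not counted and no strand option is named for the counting. Whether the adjacent pair shares reads was not tested.

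The gene with the largest fitted fall was Phvul.009G034300 on chromosome 9. In control it had 28.4, 37.2 and 42.1 CPM, and in treatment 1.54, 1.51 and 1.28 CPM, the latter from 54 to 64 counts per library. The lowest control lay far above the highest treated library. Phvul.009G034300 had under 5 CPM in every treated library, so it was tested only through the controls. The log2 fold change was -4.63 (standard error 0.19, 95% interval -5.08 to -4.19, edgeR fdr = 5.70e-05), a 24.8-fold fall, and -4.78 to -4.50 with each library left out. When genes were filtered again at 3 libraries, the gene was tested only in the fits without a treated library. Neither neighbour of Phvul.009G034300 in the table passed the minimum of 5 CPM.

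The genes named for their level changed by smaller folds than those named for the size of their change, but by more CPM. Phvul.008G113900 on chromosome 8 was the DEG that rose with the highest level in treatment. It had 620, 564 and 764 CPM in control and 1509, 2223 and 2343 CPM in treatment. Replicate 1 was the lowest treated library, above every control as the rule for named genes required. The log2 fold change was 1.64 (standard error 0.20, 95% interval 1.16 to 2.12, edgeR fdr = 0.00153), a 3.12-fold rise, and the gene moved from rank 114 to rank 10. When its fold was tested against 2 it did not pass (edgeR fdr = 0.0684). The next identifier in the table was again a DEG of the same direction, with 86.8 to 102 CPM in control and 242 to 297 CPM in treatment (log2 fold change 1.48, standard error 0.10, edgeR fdr = 0.000237).

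Phvul.008G003200, also on chromosome 8, was the DEG that fell with the highest level in control. It had 3523, 3045 and 3423 CPM in control, where it ranked 5, and 1502, 1095 and 1534 CPM in treatment, where it ranked 23. Its groups did not overlap, which the rule for named genes required, and treated replicate 2 was the lowest of the 6 libraries. The log2 fold change was -1.27 (standard error 0.15, 95% interval -1.64 to -0.91, edgeR fdr = 0.00140). That interval includes a change of less than 2-fold, and with the fold tested against 2 the gene did not pass (edgeR fdr = 0.378). Neither adjacent identifier was a DEG, the log2 fold changes being -0.12 and -0.15 (edgeR fdr = 0.154 and 0.302).

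**Figure D3:**
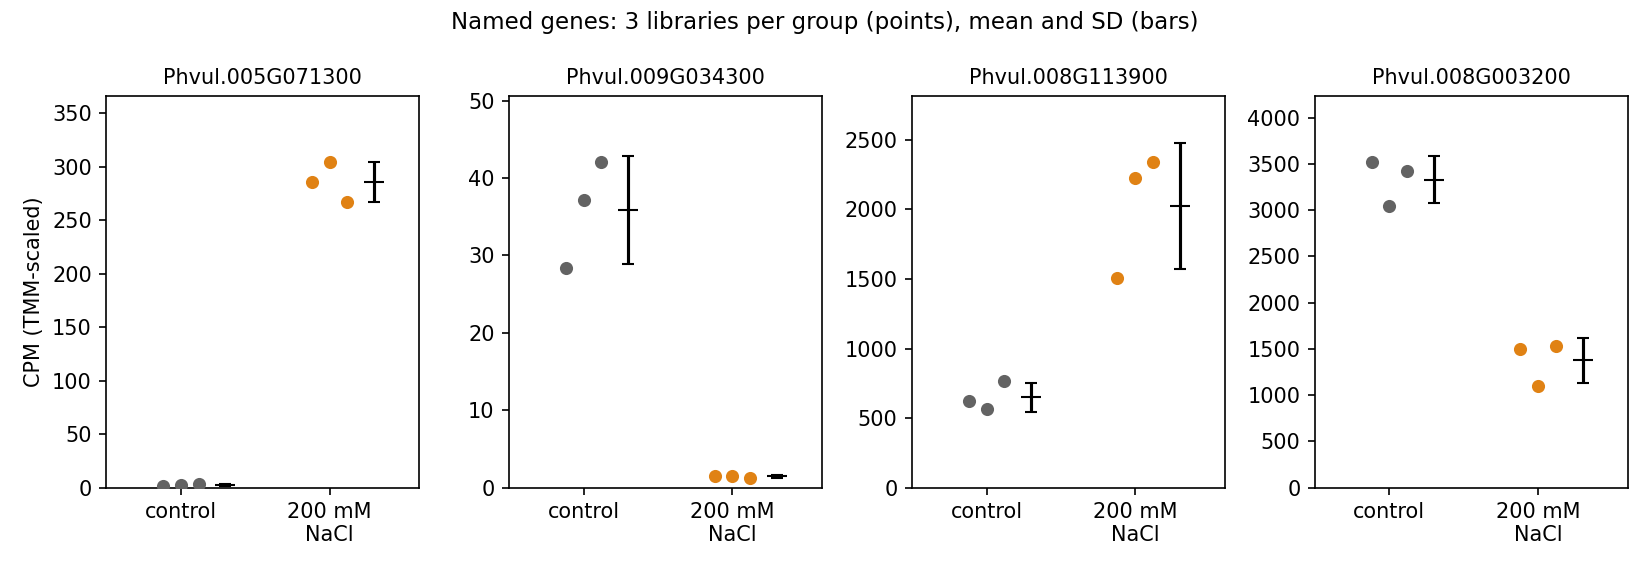
CPM of the 4 named genes (y axis, from 0, a separate scale in each panel) in the 3 control and the 3 treated Inland libraries; points are libraries, with replicates 1 to 3 from left to right, and bars the mean with SD. In each panel the treated libraries lie wholly above or wholly below the controls, which the rule for named genes required.

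The division of the sequenced reads among genes differed between the control and the treated libraries. DEGs that rose took 1.46 ± 0.0424% of the counts of a control library and 4.33 ± 0.167% of a treated one (SD, n = 3 each). DEGs that fell took 7.28 ± 0.466% in control and 2.90 ± 0.197% in treatment. These shares follow from how the genes were chosen. Shares that the contrast did not choose also differed: the 10 most abundant genes of each library took 4.20% to 4.70% of the counts in control and 3.25% to 3.46% in treatment. The 1000 most abundant took 39.6% to 40.1% in control and 37.6% to 37.8% in treatment. Both measures, and that of the top 100 genes, separated the groups without overlap (two-sided exact permutation test, p = 0.1 each, adjusted p = 0.133 by Benjamini-Hochberg over the 4 library measures). A p of 0.1 is the smallest this design can give and does not pass 0.05.

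**Figure D4:**
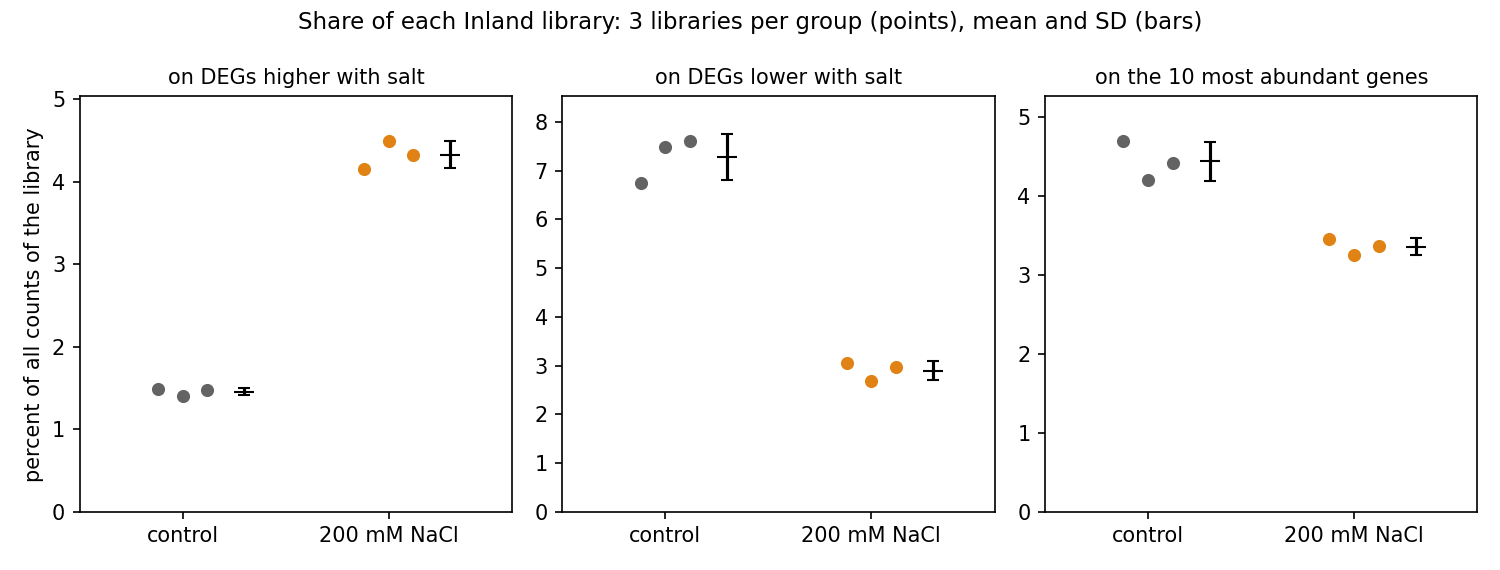
Percent of all counts of a library (y axes, from 0) on DEGs higher with salt, on DEGs lower with salt and on the 10 most abundant genes of that library, for the 3 control and 3 treated Inland libraries (points) with the mean and SD (bars). The share of the lower DEGs was 7.28% in control and 2.90% in treatment, and that of the 10 most abundant genes 4.44% and 3.36%. Shares of the DEGs follow from how these genes were chosen.

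The tested genes were divided into 5 bins of 3226 genes by their mean CPM over all 6 libraries. In the most abundant bin, from 80.1 CPM upwards, 83 genes (2.57%) were higher and 153 (4.74%) lower with salt. In the least abundant bin, up to 11.4 CPM, the directions were nearly even, with 174 genes (5.39%) higher and 178 (5.52%) lower. In the most abundant bin lower DEGs also outnumbered higher ones with library totals in place of TMM, at 97 higher and 119 lower, and when the fold was tested against 2, at 28 higher and 44 lower. Over the same tested genes, omitting each library gave 74 to 88 higher and 123 to 191 lower genes. The median standard error of a log2 fold change was 0.13 in the least abundant bin and 0.07 in the most abundant, so a change of a given size was measured less precisely among weakly expressed genes.

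Replicates agreed closely on the DEGs. For 1201 of the 1207 (99.5%) the treated and control libraries did not overlap, against 52.5% of all tested genes, and the other 6 were all lower with salt. The lowest treated library was at least 2-fold above the highest control for 281 of the higher DEGs (51.5%), and the lowest control at least 2-fold above the highest treated library for 264 of the lower DEGs (39.9%). These counts use the same libraries that chose the DEGs, which favours a gap between the groups, and are a description of them. Each library was then left out, and genes were filtered (over 5 CPM in at least 2 libraries) and called in the other 5 alone. Among genes called without a treated library, that library lay beyond all 3 controls for 98.1% to 98.7% of the higher and 97.5% to 99.5% of the lower genes. Among genes called without a control, that control lay beyond all 3 treated libraries for 99.1% to 99.6% of the higher genes. For the lower genes this was 92.5% with control replicate 1 held out, 701 of 758 genes, and 99.5% and 99.0% with replicates 2 and 3. Over all genes tested in these fits, a held-out library lay beyond the other group in the given direction for 36.1% to 39.5%. The 3 libraries of the other group had helped to call the genes, and the scaling used every library. The held-out shares are therefore not fully independent of the choice of genes.

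The treated replicates differed in how far they moved. Replicate 2 was the highest treated library for 288 of the 546 higher DEGs (52.7%) and the lowest for 355 of the 661 lower DEGs (53.7%). Over all tested genes it was the highest for 37.5% and the lowest for 37.7%. Among genes filtered and called without it, treated replicate 2 stood 1.46 above the controls on the log2 scale in the median higher gene, where replicates 1 and 3 averaged 1.34. In the median lower gene it stood at -1.44, where the other replicates averaged -1.34. Held out in the same way, replicate 1 moved less than its fellow replicates, by 1.24 against 1.34 in the higher genes and by -1.24 against -1.36 in the lower genes. Replicate 3 also moved less, by 1.30 against 1.37 and by -1.35 against -1.39. The replicates that a held-out library is compared with helped to call the genes, which favours larger changes in them. Replicate 2 was the shallowest treated library, with 35346543 counts. After every library was thinned to the depth of the smallest, 1210 genes were DEGs, 549 higher and 661 lower. How far treated replicate 2 moved was not measured again in the thinned counts, so the part of depth in the difference was not tested. The RNA integrity listed for treated replicate 2 was the lowest of the Inland genotype, and its part in the difference was not tested.

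Among the controls, replicate 1 lay nearest to the treated libraries in the lower DEGs. It was the lowest control for 326 of the 661 (49.3%), against 34.9% of all tested genes. Among genes filtered and called lower without it, it stood 1.11 above the treated libraries on the log2 scale in the median gene, where the other controls averaged 1.35. Those other controls helped to call the genes, which favours a larger gap in them. RNA integrity listed for control replicate 1 was the lowest among the Inland controls, and its part in the difference was not tested. Without control replicate 1 there were 1273 DEGs, 553 higher and 720 lower. Controls also spanned a wider range in some of the lower DEGs: the highest library was at least 2-fold above the lowest among controls for 91 of the 661 (13.8%), and among treated libraries for 49 (7.41%). For the higher DEGs this was 27 (4.95%) among controls and 31 (5.68%) among treated libraries. In the median gene the groups were close. The median SD of log2 CPM over all tested genes was 0.0982 among controls and 0.0906 among treated libraries. For the higher DEGs it was 0.176 and 0.178, and for the lower DEGs 0.231 and 0.229.

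DEGs were found on all 11 chromosomes named in the identifiers. The share of tested genes that were DEGs ran from 6.09% on chromosome 7 to 9.31% on chromosome 5, around the 7.48% of all tested genes. On chromosome 10, 21 genes (2.27%) were higher and 49 (5.30%) lower, and on chromosome 3, 82 (4.32%) were higher and 71 (3.74%) lower. No test was made between chromosomes.

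Lower DEGs often lay next to each other in the table. Of 843 tested neighbours of lower DEGs, 108 (12.8%) were lower as well, against 3.66% of the tested neighbours of genes that were not DEGs and 4.10% of all tested genes. Of 681 tested neighbours of higher DEGs, 56 (8.22%) were higher, against 3.09% beside genes that were not DEGs and 3.38% of all. The opposite direction was found for 3.23% of the neighbours of higher DEGs and 2.61% of those of lower DEGs. In pairs, 54 were lower together, 28 higher together and 22 moved apart. Whether neighbours share reads, overlap or are near copies of each other was not tested. With the fold tested against 2, 16 of 223 neighbours (7.17%) of lower genes were lower, against 1.15% of all tested genes. At that limit 4 of 255 neighbours (1.57%) of higher genes were higher, against 1.29% of all, so the higher share beside rising genes was not seen there. Without treated replicate 1 and with genes filtered again at 5 CPM in 3 libraries, the share of 8.22% was 5.14%, and 8.09% when 2 libraries over the minimum sufficed.

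**Figure D5:**
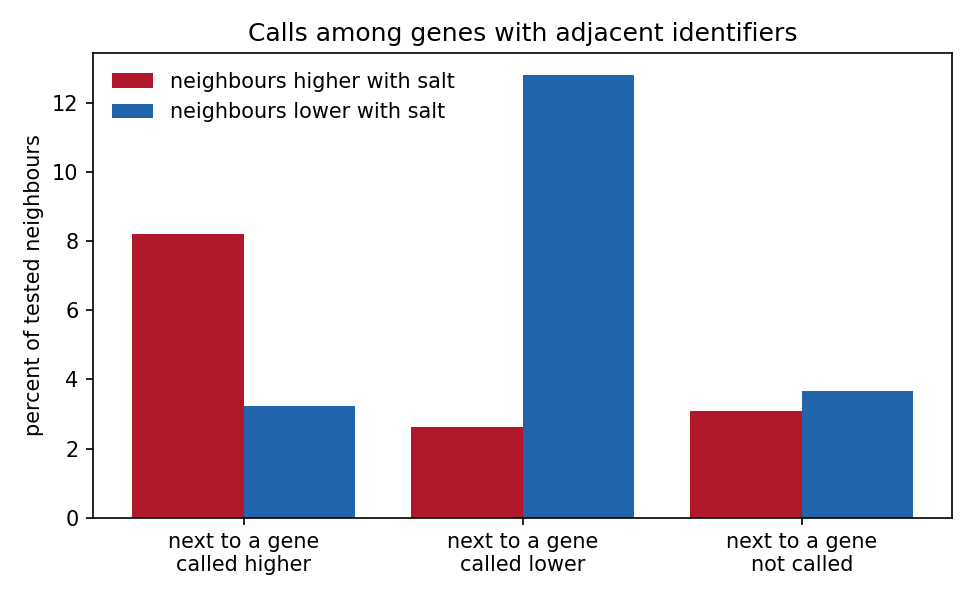
Percent of tested neighbours that were DEGs higher (red) or lower (blue) with salt (y axis, from 0), for neighbours of DEGs that rose, of DEGs that fell and of genes that did not pass (x axis); a neighbour is the gene before or after in the deposited table on the same chromosome. Neighbours of lower DEGs were lower in 12.8% and neighbours of higher DEGs higher in 8.22%, against 3.66% and 3.09% beside genes that did not pass.

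Most such groups were pairs. Adjacent DEGs of the same direction formed 25 runs with 53 higher genes and 46 runs with 100 lower genes, that is 9.71% of the higher and 15.1% of the lower DEGs. The longest runs held 4 genes. The higher one was on chromosome 9, where 4 successive genes rose by 1.58 to 2.01 on the log2 scale although their mean levels in control ranged from 2.29 to 431 CPM. A lower one on chromosome 10 fell by 1.00 to 1.09, with control means from 10.6 to 1112 CPM, and another on chromosome 11 fell by 1.24 to 1.71, with control means from 47.1 to 477 CPM. Other runs were less even: a lower run of 3 genes on chromosome 9 fell by 1.00 to 3.25 and one on chromosome 3 by 1.86 to 3.53.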

How the data were processed

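The authors trimmed single-end reads with Trimmomatic 0.36, aligned them to the common bean genome Pvulgaris_218_v1.0 with STAR and used featureCounts to count, per gene, the reads that aligned to a single place and lay in exons; the versions of STAR and featureCounts are not given in the sources used here. The deposited value per gene and library is a raw count, without normalization, and no molecular identifiers were used. Reads of another species than the reference were aligned, in both groups alike. Counts of the 6 Inland libraries were analysed in R 4.3.3 (edgeR 4.0.16, DESeq2 1.42.0, limma 3.58.1), and descriptions were made in Python 3.11.15. The test took genes with over 5 CPM in 3 or more libraries, with TMM scaling and a quasi-likelihood fit of treatment against control. CPM values printed are scaled by TMM, and distances used a prior count of 2. The SD of log2 CPM, the range between replicates and the position of held-out libraries were taken after adding 0.5 to CPM. Standard errors were derived from the F statistic. In the code of the authors the test is the exact test of edgeR, here an alternative.

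The paper describes the replicates as independent biological replicates, and the labels number them. Within a group, the chi-square per degree of freedom between 2 replicates was 13.0 to 34.6, so none was a copy of another. The named genes were fixed by rule: among DEGs with at least 10 counts in each library and no overlap, the largest rise, the largest fall, and the higher and the lower gene with the highest level. The members and rules were chosen with earlier results of these data known. The quasi-likelihood test, the exact test and DESeq2 were tried on simulated counts, with fewer changed genes than in the data and as many rises as falls. Other steps were not simulated. Alternatives covered the test, scaling, low-count filter, thresholds, depth, replicate block and each library left out. Those for 8-fold changes, changes under 2-fold, abundance, neighbours and library totals, and the filter on 2 libraries, were added after the data were seen.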

Additional observations from a re-analysis of the deposited data

How the results depend on the processing

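Of 116 alternative counts of DEGs and of genes at any fold, over 29 settings, 107 stayed within 1.5 times the reported count. With the fold tested against 2 by edgeR, 394 genes passed, 208 higher and 186 lower, all of them among the 1207 DEGs, and 2 of the 4 named genes, Phvul.008G113900 and Phvul.008G003200, no longer passed. Without a filter on low counts 2008 genes were DEGs, 949 higher and 1059 lower. At an fdr of 0.01, 3012 genes passed at any fold. The exact test of edgeR gave 1246 DEGs, 1207 of them shared, and DESeq2 1233, of which 1206 were shared. With each library left out, DEGs numbered 986 to 1341, higher DEGs 393 to 597, lower DEGs 451 to 758 and genes at any fold 3906 to 5362. With the tested genes held fixed, at least 86.3% of the 1207 passed again and 0 changed sign. When genes were filtered again at 3 libraries, the minimum of 3 libraries removed genes expressed only in the group left with fewer libraries. Genes higher by 8-fold then numbered 10 to 47 and those lower by 8-fold 8 to 27, so that the direction with more such genes turned in each fit without a treated library, and Phvul.005G071300 and Phvul.009G034300 were tested in 3 of the 6 fits each. Replicate numbers are not stated to mark a shared batch, so they were not used as pairs. Same-numbered control and treated libraries deviated from their group means with correlations of 0.0472, -0.124 and 0.0584. With the replicate block 1159 genes were DEGs, 537 higher and 622 lower, 1142 of them shared, and 4661 passed at any fold. The difference in library totals was 2281555 to 5273532 counts with each library left out. A count of 0 allows up to 3 counts, which covers counting error only.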

Other observations

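Below the minimum of 5 CPM lay 8242 genes with at least 1 count in an Inland library, and 2819 genes had no count in any of the 6. Among those below the minimum, 1 gene had at least 10 counts in each treated library and 0 in every control, and 0 genes showed the reverse.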
